A study of Caenorhabditis elegans with 3 samples.

Results

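The genes described are the neuropeptide and insulin-like peptide genes of Caenorhabditis elegans, taken as every row whose platform symbol or current name begins with flp-, nlp- or ins- and a digit. There were 95 such genes on 109 rows, 22 flp, 53 nlp and 20 ins, out of 148 genes with these names in the RefSeq gene table (31 flp, 78 nlp and 39 ins). Of the 95 genes, 94 had a value on all 3 arrays and were tested among 19719 features. The gene left out of the test was nlp-91, with log2 ratios of 1.42 and -0.52 on the arrays of preps 2 and 3 and no value on the array of prep 1. A further row lists both mrt-1 and flp-22, so its values of 0.89, 0.32 and 0.47 were given to neither gene.

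The study compared fem-1(lf) animals with fem-3(gf) animals on 3 arrays of 2 colours, each array holding RNA of 1 fem-1(lf) prep and 1 fem-3(gf) prep. In fem-1(lf), loss of fem-1 function feminizes the germ line of XX worms, so that they make oocytes but no sperm. In fem-3(gf), excess fem-3 function masculinizes it, so that XX worms make sperm but no oocytes. Both groups are thus germline sex mutants, no wild type is among the samples analysed here, and the alleles, the age and the growth temperature were not stated in the labels. Whether the preps were grown as separate cultures is not stated, so p-values rest on the spread between these 3 arrays alone, which may be technical. The limma fit draws the spread of each gene toward a value fitted over all features, so a p-value does not measure the gene's own spread alone.

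Every value below is a log2 ratio of fem-1(lf) over fem-3(gf), so values above 0 stand for more RNA in fem-1(lf). This direction was called likely, since the labels name fem-1(lf) first and in channel 2 but name no dye. With that reading all 15 oocyte markers measured were higher in fem-1(lf) (median 2.80) and all 13 sperm markers were higher in fem-3(gf) (median -5.39). A gene was called where limma's adjusted p was under 0.05 over all 19719 features. By that rule the share of all features with the higher level in fem-1(lf) was 21% and that with the higher level in fem-3(gf) 23.7%, and the median of all features was -0.10. The labels name no tissue, and in bulk RNA fewer cells of a type and less RNA per cell cannot be told apart.

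The genes belong to 3 families of secreted signals. The flp genes encode precursors of FMRFamide-like peptides, short amidated peptides that end in arginine and phenylalanine. The nlp genes are a mixed class of other neuropeptide-like precursors, some made in neurons and some in the epidermis. Precursors are cut by proprotein convertases, trimmed and amidated in dense-core vesicles, and the released peptides act mostly on G protein-coupled receptors. The ins genes encode insulin-like peptides, which act as agonists or antagonists of the insulin receptor DAF-2 and thereby set growth, dauer entry, metabolism and life span.

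Most of these genes lay a little to the fem-3(gf) side, and 5 lay far to that side. Of the 94 genes tested, 1 was higher in fem-1(lf), 42 were higher in fem-3(gf) and 51 did not pass. The 42 genes are 44.7% of the members, against 23.7% of all features called in that direction, and the 1 gene is 1.06%, against 21%. Differences of at least 2-fold were fewer than among all features: no member was at least 2-fold higher in fem-1(lf), against 8.44%, and 5 (5.32%) were in fem-3(gf), against 10.2%. This holds for the mean over a gene's rows: a single row of nlp-55 (2.32) and of nlp-7 (1.05) was more than 2-fold higher in fem-1(lf), and a single row of flp-10 (-1.08) was so in fem-3(gf). All 3 arrays lay below 0 for 68 members (72.3%, against 41.4% of all features), and above 0 for 6 members (6.38%, against 29.5%). Leaving out any array lowered the share of all features called on each side. Without prep 1, 2 members (2.13%) were higher in fem-1(lf), against 20.4% of all features, and 32 (34%) in fem-3(gf), against 20.7%. Without prep 2 there were 1 (1.06%, against 15.9%) and 24 (25.5%, against 15.9%), and without prep 3 there were 1 (1.06%, against 14.8%) and 21 (22.3%, against 13.9%). The median of the members was -0.41, and it was -0.49, -0.32 and -0.37 on the arrays of preps 1, 2 and 3. The members spread little between arrays, with a median SD of 0.20 on the log2 scale, against 0.22 for all features.

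**Figure D1:**
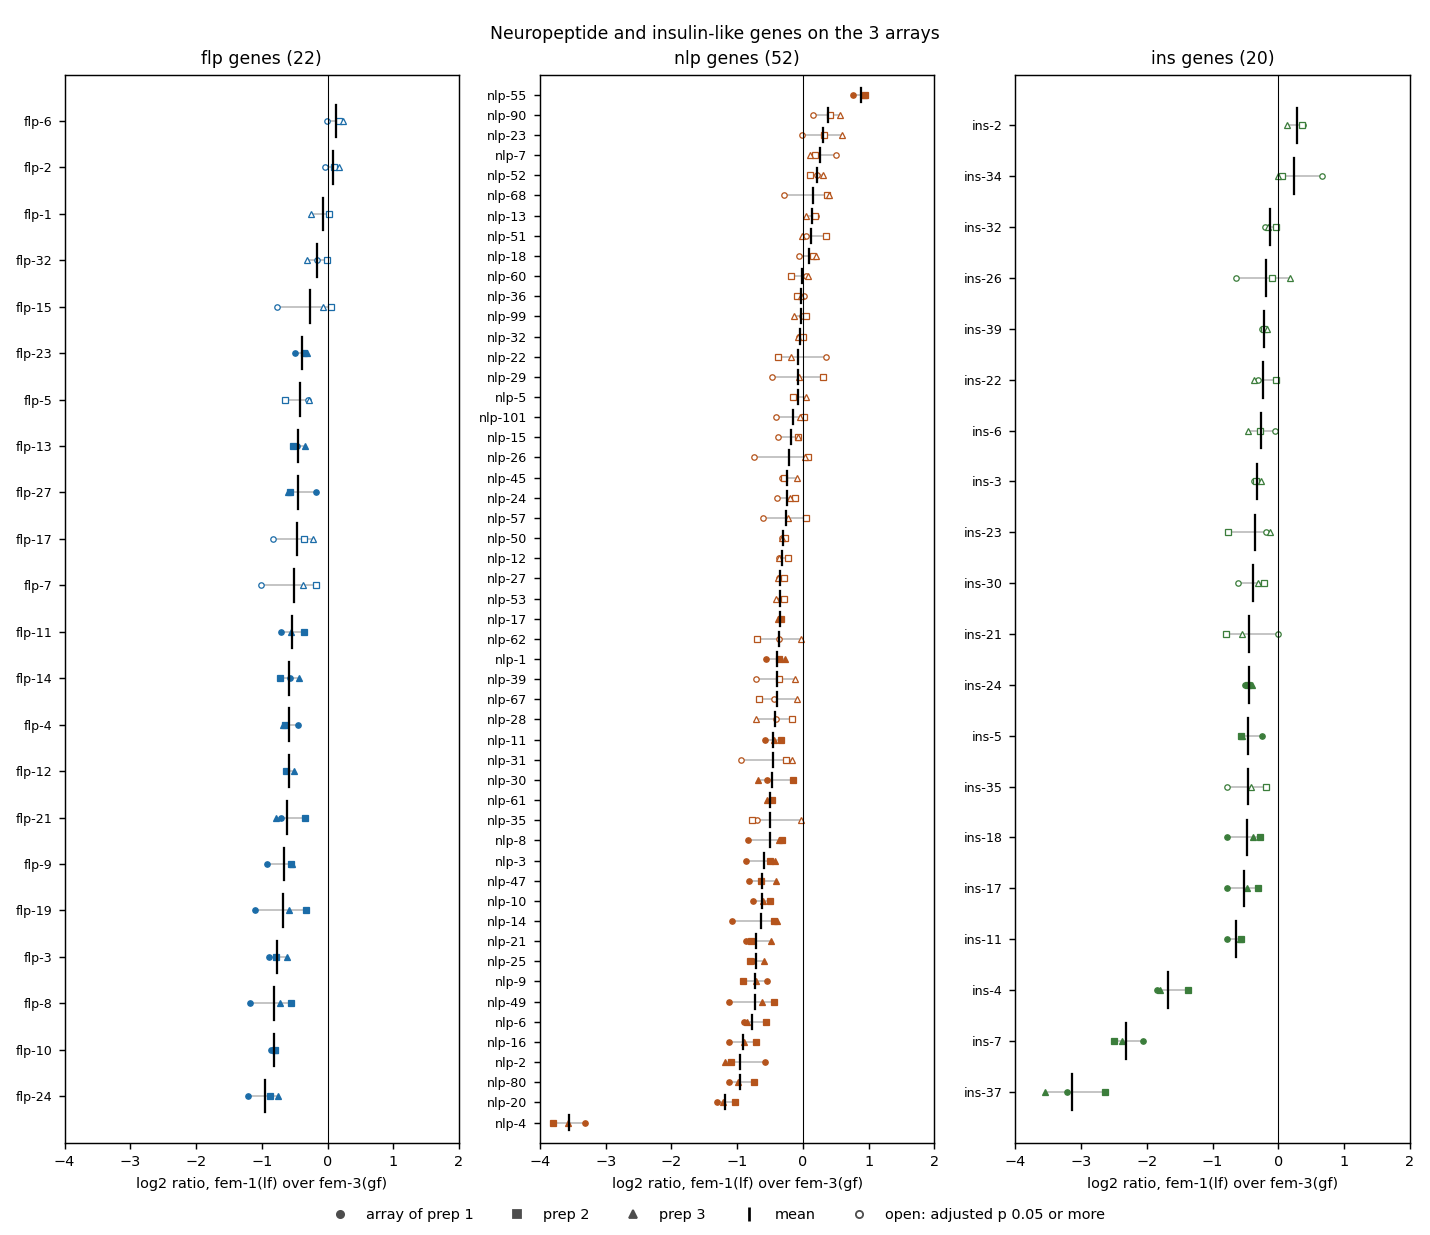
Log2 ratio (fem-1(lf) over fem-3(gf), x axis) of the 94 genes measured on all 3 arrays, by family and in order of the mean. Each symbol is 1 array, the black bar is the mean, and filled symbols mark genes with a limma adjusted p under 0.05; nlp-4, ins-37, ins-7, ins-4 and nlp-20 lie below -1, and nlp-55 is the only filled gene above 0.

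The 3 families had similar medians and different tails. Of 22 flp genes, none was higher in fem-1(lf) but 14 were in fem-3(gf), with a median of -0.53 and means between -0.94 and 0.13. Of 52 nlp genes, 1 was higher in fem-1(lf) but 20 were in fem-3(gf), with a median of -0.35 and means between -3.56 and 0.88. Of 20 ins genes, none was higher in fem-1(lf) but 8 were in fem-3(gf), with a median of -0.42 and means between -3.13 and 0.29. The shares higher in fem-3(gf) were thus 63.6% for flp, 38.5% for nlp and 40% for ins, against 23.7% of all features. The 1 nlp gene higher in fem-1(lf) is 1.92% of that family, against 21% of all features. The flp genes had the smallest SD among members, 0.28, against 0.59 for nlp and 0.83 for ins. By the quartiles, ins (-0.49 and -0.23) was about as tight as flp (-0.66 and -0.40). By the mean over rows, no flp gene reached 2-fold in either direction, and 2 nlp and 3 ins genes were at least 2-fold higher in fem-3(gf). With rows taken alone, flp-10 also reached it, on 1 of its 2 rows. On single arrays the family medians were -0.68, -0.45 and -0.47 for flp, -0.43, -0.29 and -0.21 for nlp, and -0.44, -0.29 and -0.39 for ins. The flp median was thus the lowest on each array, and the order of nlp and ins was close on preps 1 and 2. Differences between the families were not tested, since genes are not replicates.

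**Figure D2:**
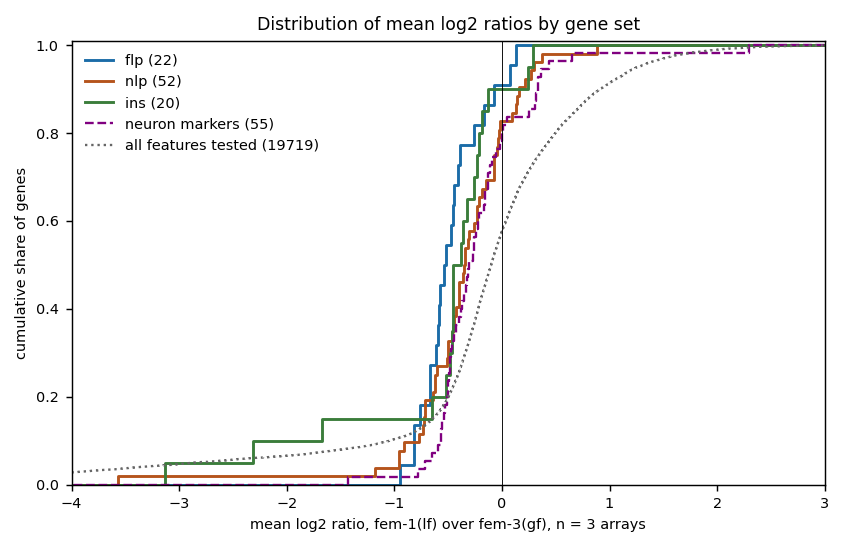
Cumulative share (y axis) of genes by mean log2 ratio over 3 arrays (x axis) for flp, nlp, ins, neuron markers and all features tested. The 3 families and the neuron markers rise steeply between about -1 and 0, and a few ins and nlp genes form a tail down to -3.56.

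Markers of neurons and of other tissues were counted in the same way. Of 55 neuron genes measured (synaptic, transmitter, channel and sensory genes), 4 (7.27%, against 21% of all features) were higher in fem-1(lf), whereas 17 (30.9%, against 23.7%) were so in fem-3(gf), with a median of -0.31 and means between -1.43 and 2.29. Of 20 epidermis and cuticle markers, 1 (5.0%, against 21%) was higher in fem-1(lf), with 5 (25%, near the share of all features) higher in fem-3(gf) and a median of -0.32. Of 15 intestine markers, 1 (6.67%, against 21%) was called on the fem-1(lf) side, with 7 (46.7%, against 23.7%) on the fem-3(gf) side and a median of -0.42. That share and median were close to the 44.7% and -0.41 of the members, so the shift was not particular to peptide genes. With the median of each array set to 0, 2 members (2.13%) were higher in fem-1(lf), against 23.8% of all features, and 31 (33%) in fem-3(gf), against 18.3%. On the scale where the neuron marker median of each array is 0, the median of all features was 0.21. On that scale 10 members (10.6%) were higher in fem-1(lf), against 32.9% of all features, and 15 (16%) were higher in fem-3(gf), against 12.5%. All 15 were among the 42 called on the deposited scale. The family medians on that scale were -0.23 for flp, -0.04 for nlp and -0.11 for ins. The 15 were nlp-2, nlp-4, nlp-6, nlp-16, nlp-20, nlp-21, nlp-25, nlp-80, flp-3, flp-8, flp-10, flp-24, ins-4, ins-7 and ins-37. What part a difference in neuron RNA between the genotypes has in the members' ratios was not tested.

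**Figure D3:**
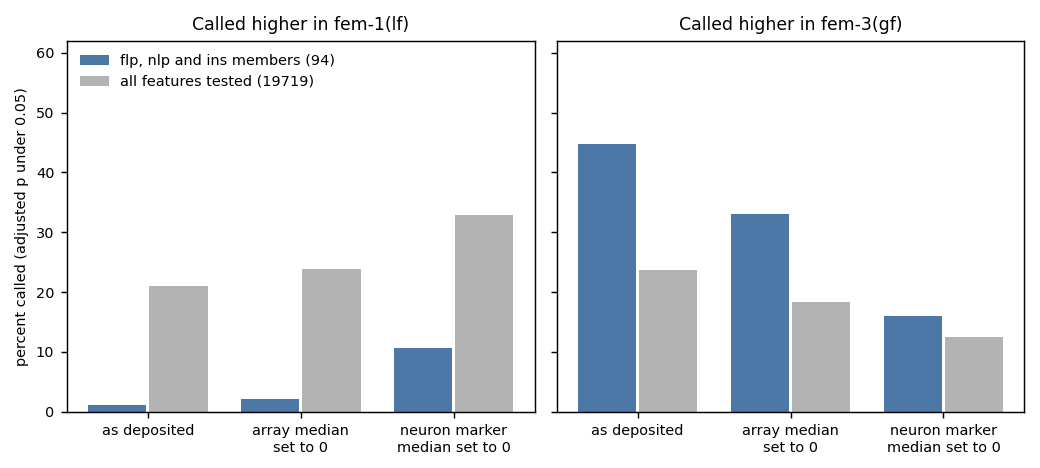
Percent of the 94 members and of all 19719 features called on the fem-1(lf) side (left panel) and on the fem-3(gf) side (right panel) at a limma adjusted p under 0.05, with the ratios as deposited, with each array's median set to 0 and with each array's neuron marker median set to 0. The share of members called higher in fem-3(gf) is 44.7%, 33% and 16% in turn.

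Among the insulin-like genes, 3 lay far below the other 17. The log2 ratios of ins-37 (F08G2.6, chromosome II) were -3.21, -2.63 and -3.56 on the arrays of preps 1, 2 and 3. Its mean of -3.13 ± 0.47 (SD, n = 3) is an 8.78-fold higher level in fem-3(gf) (limma adjusted p = 0.000136). The ratios of ins-7 (ZK1251.2, chromosome IV), an agonist of DAF-2 whose own expression is repressed by the pathway's transcription factor DAF-16, were -2.06, -2.50 and -2.37. Their mean of -2.31 ± 0.22 is a 4.97-fold higher level in fem-3(gf) (limma adjusted p = 0.000105). The ratios of ins-4 (ZK75.1, chromosome II), an agonist of DAF-2 made in sensory neurons, were -1.85, -1.38 and -1.80, with a mean of -1.68 ± 0.26, or 3.20-fold (limma adjusted p = 0.000464). On each array these 3 genes kept the order ins-37, ins-7, ins-4 from the lowest ratio up. The gene next to them was ins-11 at -0.65, so a wide gap separates the 3 genes from the other members of the family.

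The remaining 5 called insulin genes differed little from each other. They were ins-11, an intestinal peptide of pathogen responses, at -0.65 ± 0.12 (SD, n = 3), ins-17 at -0.52, ins-18, an antagonist of DAF-2, at -0.48, ins-5 at -0.45 and ins-24 at -0.45, with limma adjusted p-values between 0.00797 and 0.041. Of these 5, ins-11 alone passed without each prep in turn. The adjusted p without preps 1, 2 and 3 was 0.068, 0.050 and 0.11 for ins-17 and 0.095, 0.069 and 0.12 for ins-18, and without preps 2 and 3 it was 0.15 and 0.18 for ins-5 and 0.10 and 0.11 for ins-24. Agonists and antagonists of DAF-2 were both among the called genes. The agonist ins-6, needed for exit from dauer, was at -0.26 ± 0.21 and did not pass (limma adjusted p = 0.16). The ratios of ins-6 on preps 1, 2 and 3 were -0.05, -0.28 and -0.46, all above those of ins-4 on the same array. The family members with the highest means were ins-34 at 0.24 ± 0.37 and ins-2 at 0.29 ± 0.13, neither of which passed. The members nearest to 0 were ins-32 at -0.13 ± 0.09 and ins-26 at -0.19 ± 0.42. The arrays of ins-26 lay on both sides of 0, between -0.64 on prep 1 and 0.18 on prep 3.

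Among the nlp genes, nlp-4 stood alone. The log2 ratios of nlp-4 (F59C6.6, chromosome I) were -3.32, -3.80 and -3.57 on the arrays of preps 1, 2 and 3, the lowest ratio of the 94 members on each array, though ins-37 at -3.56 came close to it on prep 3. The mean of -3.56 ± 0.24 (SD, n = 3) is an 11.8-fold higher level in fem-3(gf) (limma adjusted p = 2.62e-05), which placed nlp-4 within the lowest 3.53% of all features. The next gene was nlp-20 (F45E4.8, chromosome IV) with -1.30, -1.03 and -1.21, a mean of -1.18 ± 0.14 and a 2.27-fold higher level in fem-3(gf) (limma adjusted p = 0.00092). The arrays of nlp-4 and nlp-20 did not overlap, and no other nlp gene had a mean below -1.

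Behind these, nlp genes formed a continuous series. The mean ratios of nlp-80, nlp-2, nlp-16, nlp-6 and nlp-49 were -0.96, -0.95, -0.91, -0.77 and -0.73, with limma adjusted p-values between 0.00256 and 0.0164. The peptides of nlp-49 promote arousal through the receptor SEB-3, and its call was lost without prep 3 (-0.79, limma adjusted p = 0.052). The other 13 called nlp genes had means between -0.73 (nlp-9) and -0.35 (nlp-17). They included nlp-3, which acts in the egg-laying motor neurons, at -0.60 ± 0.23 (SD, n = 3), nlp-47, related to adipokinetic and gonadotropin-releasing hormones, at -0.62 ± 0.20, and nlp-8, a sleep-promoting peptide gene, at -0.51 ± 0.29. None of these 3 passed without prep 2, where the adjusted p was 0.057, 0.062 and 0.072. Without prep 3 it was 0.050 for nlp-3 and 0.098 for nlp-8, and without prep 1 it was 0.085 for nlp-8. The cholecystokinin-like gene nlp-12, which modulates locomotion, had -0.36, -0.23 and -0.37 and did not pass (limma adjusted p = 0.07). The members nearest to 0 were nlp-60 at -0.02 ± 0.14 and nlp-36 at -0.03 ± 0.06.

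The epidermal antimicrobial-type peptide genes did not stand apart from the other nlp genes in their median. Of 9 measured nlp genes of this kind, several of which are induced by fungal infection and wounding, 2 were higher in fem-3(gf) and 7 did not pass, with a median of -0.34, against 18 of 43 and a median of -0.35 for the other nlp genes. The share of 2 in 9 was near the 23.7% of all features called in that direction, and that of 18 in 43 was above it. The called genes were nlp-25 at -0.72 ± 0.11 (SD, n = 3) and nlp-30 at -0.46 ± 0.27 (limma adjusted p = 0.00543 and 0.047). Without prep 1 the adjusted p of nlp-30 was 0.11 and without prep 3 it was 0.24. The best known of them, nlp-29, had -0.47, 0.31 and -0.06, so its arrays lay on both sides of 0. Among the related caenacin genes, cnc-2 was at -0.70 and cnc-5 at 0.62, on opposite sides of 0 and both past the limma test on all 3 arrays (adjusted p = 0.00574 and 0.036). However, cnc-5 did not pass without prep 2 (mean ratio 0.52) or prep 3 (mean ratio 0.49), nor cnc-2 without prep 3 (mean ratio -0.64). The other caenacin genes measured, cnc-1, cnc-3, cnc-4, cnc-7 and cnc-8, did not pass.

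The flp genes lay in a narrow band on the fem-3(gf) side. The lowest was flp-24 (C24A1.1, chromosome III), a sleep-promoting gene of the ALA neuron, with -1.20, -0.87 and -0.76 and a mean of -0.94 ± 0.23 (SD, n = 3, 1.92-fold higher in fem-3(gf), limma adjusted p = 0.00338). Next came flp-10 at -0.82 ± 0.04, flp-8 at -0.82 ± 0.33 and flp-3 at -0.76 ± 0.13 (limma adjusted p between 0.00268 and 0.00954). All 3 arrays were below -0.55 for each of these 4 genes. The peptides of flp-10 act with those of flp-17 on the receptor EGL-6 to inhibit egg laying, and those of flp-8 act in the turning step of male mating. The ratios of flp-17 were -0.83, -0.36 and -0.22, with a mean of -0.47 ± 0.32 that did not pass (limma adjusted p = 0.056). The social feeding gene flp-21, a ligand of NPR-1, was at -0.61 ± 0.24, the sleep gene flp-11 of the RIS neuron at -0.54 ± 0.18 and the stress-sleep gene flp-13 at -0.45 ± 0.09, all higher in fem-3(gf). Without prep 3 none of these 3 genes passed (adjusted p between 0.10 and 0.105), and flp-13 did not pass without prep 2 (0.125) or prep 1 (0.050). The means nearest to 0 were those of flp-1 at -0.07 ± 0.16 and flp-2, an arousal gene, at 0.08 ± 0.11. The mean of flp-1 averages a row at 0.60 and a row at -0.74, neither of them near 0.

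For 14 members the array held 2 rows, and 3 of these had rows on opposite sides of 0. The 2 rows of nlp-55 (F14F11.2, chromosome II) gave 2.25, 2.51 and 2.18 on preps 1, 2 and 3 in the higher row, and -0.72, -0.63 and -0.31 in the lower row. Taken alone, the higher row had a mean of 2.32 ± 0.17 (SD, n = 3, adjusted p = 7.88e-05 when limma was run on each row) and the lower row -0.56 ± 0.21 (adjusted p = 0.021). The mean of 0.88 over both rows, which made nlp-55 the only member called higher in fem-1(lf), describes neither row. The rows of nlp-7, an inhibitor of egg laying, gave 1.52, 0.86 and 0.78 in the higher row and -0.52, -0.49 and -0.56 in the lower row. Both rows of nlp-7 passed when fitted alone (limma adjusted p = 0.0061 and 0.015), while their mean of 0.27 ± 0.21 did not. The rows of flp-1, a modulator of locomotion, gave 1.14, 0.43 and 0.24 in the higher row and -1.09, -0.39 and -0.75 in the lower row. Of these 2 rows the lower passed alone (limma adjusted p = 0.015) and the higher did not (0.054).

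The other 11 members with 2 rows had both row means on the fem-3(gf) side. Their rows differed by between 0.03 (nlp-61) and 0.51 (flp-10) on the log2 scale. The rows of flp-10 averaged -1.08 and -0.57, both past the test, as were both rows of ins-11 (-0.77 and -0.52), nlp-21 (-0.74 and -0.69), nlp-49 (-0.76 and -0.71), nlp-61 (-0.51 and -0.48) and flp-4 (-0.65 and -0.53). For flp-23, ins-24 and nlp-17 the lower row passed alone and the higher did not, and for ins-26 and nlp-45 neither row passed. Rows differed by more than 1 for 3 of the 14 members, against 143 of 1401 genes (10.2%) among all genes with several rows on all arrays. The sources used here do not say which part of a gene each row probes.

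**Figure D4:**
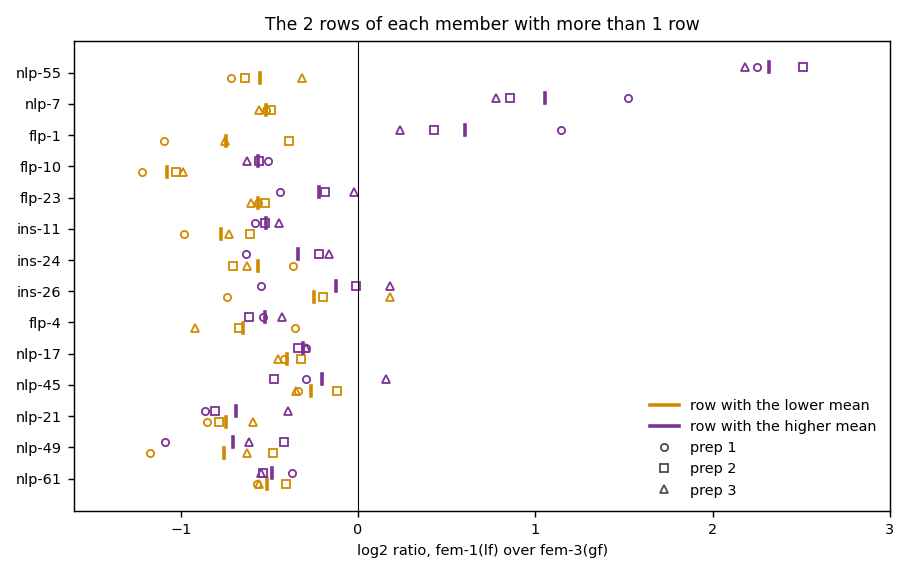
Log2 ratio (x axis) of each of the 2 rows of the 14 members with more than 1 row, with a symbol for each array and a bar for the mean of each row. The rows of nlp-55, nlp-7 and flp-1 lie on opposite sides of 0, and those of the other 11 genes have both means below 0.

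Many of these genes lie close together in the genome, and close neighbours did not always share a ratio. With at most 2 other protein-coding genes between members, 30 members formed 10 clusters, and the means within a cluster differed by more than 1 in 2 of them. In the cluster of ins-2, ins-3, ins-4, ins-5 and ins-6 on chromosome II, the means were 0.29, -0.32, -1.68, -0.45 and -0.26. The ratio of ins-4 was below that of ins-3, its direct neighbour, by 1.48, 1.04 and 1.54 on the 3 arrays, and the interval of the arrays of ins-4 overlapped that of no other gene of the cluster. In the cluster of nlp-45, nlp-22, nlp-23 and nlp-2 on the X chromosome, the means were -0.24, -0.07, 0.30 and -0.95, and nlp-2 was below nlp-23 on each array, with a mean difference of -1.25 ± 0.63 (SD, n = 3). The neighbours flp-3 and flp-2 on the X chromosome were at -0.76 and 0.08, with a difference of -0.84 ± 0.05 on 3 arrays, and nlp-9 and nlp-13 on chromosome V were at -0.73 and 0.14, with a difference of -0.87 ± 0.20. The differences between neighbours were not tested. The ins genes of chromosomes I (ins-24, ins-30 and ins-26) and III (ins-21, ins-22 and ins-23) and the 5 antimicrobial-type genes nlp-27 to nlp-31 on chromosome V had means within 0.39 of each other in each cluster.

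**Figure D5:**
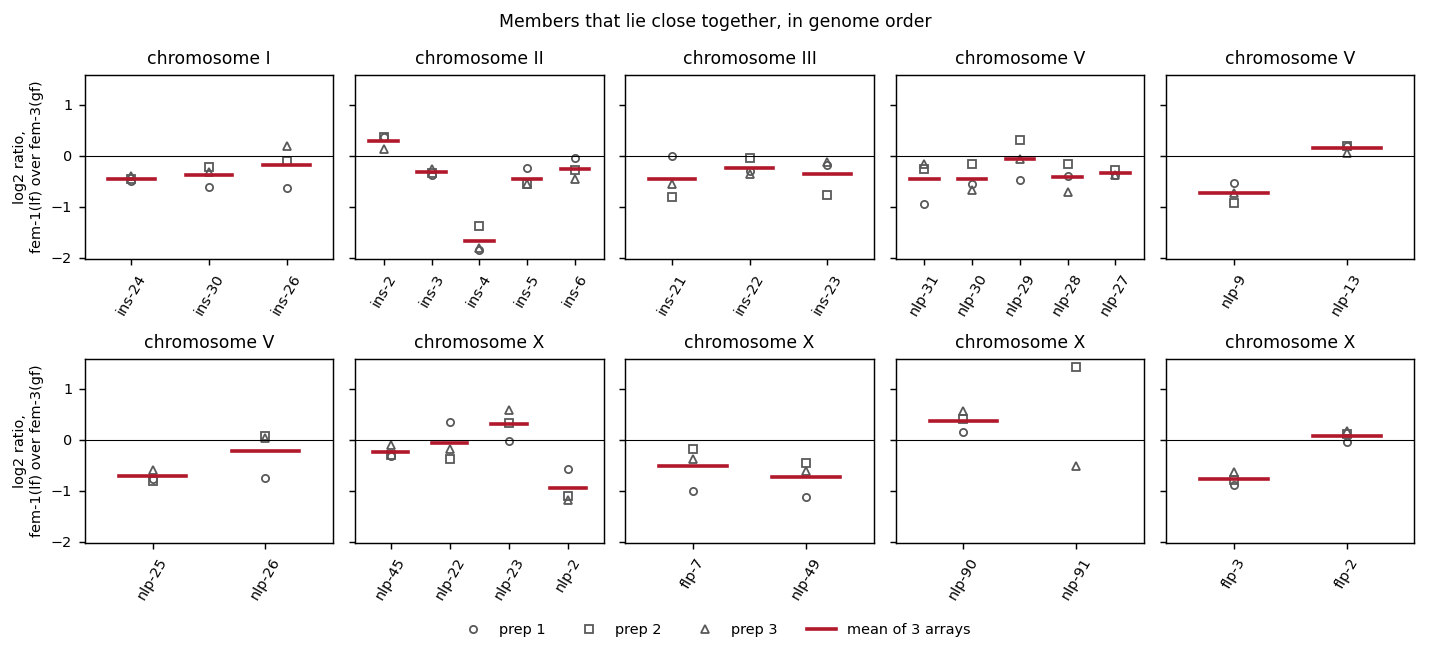
Log2 ratio (y axis) of the members in the 10 clusters, in genome order along the x axis, with a symbol for each array and a red bar for the mean of 3 arrays. The gene ins-4 lies below its 4 neighbours on every array, and nlp-91 has 2 arrays and no mean.

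The genes beside the outlying members lay on both sides. The gene next to ins-7 is htas-1, a histone H2A variant gene of sperm, with -6.64, -5.35 and -6.19 on the 3 arrays and a mean of -6.06 ± 0.66 (SD, n = 3, limma adjusted p = 3.07e-05), and the gene after it, ZK1251.3, was at -3.83 ± 0.83. The gene next to nlp-4 with a value is exos-3, a subunit of the RNA exosome, at 1.44 ± 0.34 on the fem-1(lf) side, and the measured neighbour of ins-37, F08G2.5, was at -0.16 ± 0.68 and did not pass. Thus ins-7 lay beside 2 genes far on the fem-3(gf) side, and nlp-4 and ins-37 had no such measured neighbour among these. The part of a neighbour's RNA in these values was not tested. Direct neighbours with a mean below -3, a limit chosen after the values were seen, stood beside 4 of the 42 members higher in fem-3(gf) and beside 4 of the 51 that did not pass. These are counts of members, each with up to 2 direct neighbours, and the measured direct neighbours that are not members numbered 51 and 60 in turn. Of all single features, 4.39% lay below the mean of ins-37 at -3.13. That share has another unit and another limit, so it is no rate to set the counts of members against. Besides ins-7, the called members were nlp-47 at -0.62 beside msp-51 at -6.71, flp-10 at -0.82 beside T06C10.3 at -4.50, and nlp-10 at -0.62 beside F37A8.2 at -3.80. The members that did not pass were nlp-26 at -0.21, which overlaps Y43F8C.3 at -4.76, nlp-5 at -0.08 beside nte-2 at -4.28, flp-6 at 0.13 beside F07D3.3 at -4.18, and nlp-62 at -0.37 beside F33D11.1 at -3.69. Neighbours that are themselves members were left out of the next counts. Of the 51 measured direct neighbours of the 42 members higher in fem-3(gf), 16 (31.4%) were themselves higher in fem-3(gf), and of the 60 neighbours of the members that did not pass 16 (26.7%) were, against 23.7% of all features.

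The members are spread over all 6 chromosomes, with 26 of the 94 on the X chromosome. On the X chromosome no member was called on the fem-1(lf) side, with 12 of 26 on the fem-3(gf) side, against 16.4% and 20% of the 2195 named X-linked genes. The X-linked members had a median of -0.41 and means between -0.95 and 0.38, and all named X-linked genes had a median of -0.12. Member medians on chromosomes I, II, III, IV and V were -0.39, -0.31, -0.38, -0.50 and -0.44, against medians of all named genes of 0.02, -0.07, 0.06, -0.12 and -0.14. The member median was thus below that of all named genes on every chromosome. The genes with the largest differences, nlp-4, ins-37, ins-7, ins-4 and nlp-20, all lie on autosomes.

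Genes that mature neuropeptides had calls on both sides. Of 18 genes of precursor processing and dense-core vesicles, 2 (11.1%, against 21% of all features) passed on the fem-1(lf) side, with 6 (33.3%, against 23.7%) on the fem-3(gf) side. Their median of -0.16 was close to the -0.10 of all features. The proprotein convertase gene egl-3 was at -1.01, -0.62 and -0.66, with a mean of -0.77 ± 0.22 (SD, n = 3, limma adjusted p = 0.0067). The amidating enzyme gene pamn-1 was at -0.78 ± 0.04, the convertase chaperone gene sbt-1 at -0.61 ± 0.08 and the carboxypeptidase gene egl-21 at -0.44 ± 0.17 (limma adjusted p between 0.00326 and 0.036). These 4 genes serve precursor cleavage, trimming and amidation, and all 3 arrays of each lay below 0. They do not stand for the whole list, of which 10 genes did not pass. Among those 10, aex-5 was at -0.15 ± 0.22 and bli-4 at 0.17 ± 0.10, above 0 on all 3 arrays. The call of egl-21 was lost without prep 1 (-0.38), prep 2 (-0.41) or prep 3 (-0.54), and that of sbt-1 without prep 3 (-0.57). The gene unc-31, needed for release of dense-core vesicles, was at -0.30 ± 0.28 and did not pass. On the other side were the protein kinase C gene pkc-1 at 0.78 ± 0.37 and hid-1, a vesicle maturation gene, at 0.69 ± 0.17. Without prep 3 hid-1 did not pass (mean ratio 0.63).

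Receptor genes of neuropeptides were mostly not called. Of 74 measured, 3 (4.05%, against 21% of all features) were higher in fem-1(lf) and 15 (20.3%, against 23.7%) were higher in fem-3(gf). The other 56 did not pass, and the median of the 74 was -0.20. The lowest were the FMRFamide receptor-like genes frpr-9 at -1.74, -0.68 and -1.44 and frpr-15 at -1.01, -1.07 and -1.20, with means of -1.29 and -1.09 (limma adjusted p = 0.00594 and 0.00106). The highest were pdfr-1, the receptor of the PDF peptides, at 1.20 ± 0.17 (SD, n = 3, limma adjusted p = 0.000985) and gnrr-2 at 0.75 ± 0.29. Without prep 2 gnrr-2 did not pass (mean ratio 0.58). The PDF peptide genes themselves lay on the opposite side from pdfr-1, pdf-2 at -0.58 ± 0.05 (limma adjusted p = 0.00983) and pdf-1 at -0.35 ± 0.10, short of the threshold (0.057). The call of pdf-2 was lost without prep 2 (-0.55) or prep 3 (-0.60). Of the 9 measured genes in the list of other peptide and growth factor signals, 1 was higher in each group, lin-3, an EGF-like gene, at 1.10 ± 0.33 and pdf-2.

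The insulin receptor pathway had calls on both sides. Of 15 genes measured, 5 (33.3%, against 21% of all features) were higher in fem-1(lf), 3 (20%, against 23.7%) in fem-3(gf) and 7 did not pass. Their median was 0.21, that of the ins genes -0.42 and that of all features -0.10. The receptor gene daf-2 had 0.40, 0.81 and 0.68, with a mean of 0.63 ± 0.21 (SD, n = 3, limma adjusted p = 0.013). It did not pass without prep 2 (mean ratio 0.54) or prep 3 (mean ratio 0.61). The lipid phosphatase gene daf-18, which opposes the receptor's signal, was the highest at 1.85 ± 0.27 (3.61-fold higher in fem-1(lf), limma adjusted p = 0.000344), followed by the kinase gene pdk-1 at 1.18 ± 0.22. On the other side were the adaptor protein gene ftt-2 at -0.54 ± 0.05, which did not pass without prep 2 (-0.55) or prep 3 (-0.55), and the insulin receptor substrate gene ist-1 at -0.47 ± 0.29, which did not pass when prep 1 (-0.45), prep 2 (-0.34) or prep 3 (-0.62) was left out. The transcription factor gene daf-16, on which the pathway converges, was at 0.05 ± 0.07 and did not pass (limma adjusted p = 0.76). The insulin gene daf-28 was not analysed here.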

How the data were processed

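The authors deposited log2 ratios of the 2 channels of 3 arrays. Base 2 was read off the values: turned back to linear ratios, 64205 of 64209 were whole thousandths (tolerance 0.01). How they scaled, centred and background-corrected the arrays, and the dyes, are not given in the sources used. No dye swap is stated. Spot intensities were not analysed here. The arrays had values for 21381, 21425 and 21403 of 21611 rows, with medians of -0.15, -0.07 and -0.07, and correlated at 0.91 to 0.93 across rows, which are not independent replicates. The number of arrays limits the precision.

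Gene names came from the platform annotation, updated with RefSeq's table of assembly WBcel235: 16450 rows had 1 gene, 247 several and 4914 none, and 16360 matched by gene ID and 8 by accession. Rows sharing a gene were averaged on each array, and the 19719 features with values on all 3 arrays were fitted with limma 3.58.1 in R 4.3.3 (intercept against 0, eBayes, two-sided, Benjamini-Hochberg). On simulated data with 100 of 19719 features changed at each size, the fit recovered 45% of changes of 1 and 94% of changes of 2, with 5 false among 144 calls. In the data 4148 and 4667 features were called on the 2 sides. With so many more calls an adjusted p of 0.05 is a looser cut, so these shares do not give the recovery in the data. Neighbours are protein-coding genes in the order of the RefSeq table. Figures used matplotlib 3.10.9.

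The members and the lists were chosen with earlier results of these data known. Named are the 14 largest called members on each side, the 2 nearest 0 per family, those with several rows, the 2 largest called genes on each side of each pathway list, and egl-3, egl-21, sbt-1, unc-31, daf-2, daf-16 and pdf-1. Other names were chosen for their known roles or after their values were seen. Alternatives were median centring, neuron marker centring, equal spread, features on at least 2 arrays, leaving out each prep, robust eBayes, rows alone, an adjusted p under 0.01 and a 2-fold minimum.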

Additional observations from a re-analysis of the deposited data

How the results depend on the processing

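The 14 members named as lowest kept their direction under every alternative run, while nlp-55 changes sign with the row used (2.32 or -0.56); nlp-4, ins-37, ins-7 and ins-4 stayed past the test under each, with ranges of -3.68 to -3.26, -3.38 to -2.83, -2.44 to -2.01 and -1.83 to -1.37. Of the 43 called members, 19 kept their call without each of preps 1, 2 and 3. The same count over all called features is not given here, so whether the members kept fewer or more calls than other genes is not known. Leaving out a prep gave 6 to 11 flp genes, 11 to 14 nlp genes and 4 to 7 ins genes higher in fem-3(gf), against 14, 20 and 8. The share of all features called in that direction fell as well, from 23.7% to between 13.9% and 20.7%. The fewest were called without prep 3, where 6 flp, 11 nlp and 4 ins genes passed, and without prep 2 there were 8, 12 and 4. From 1 to 2 nlp genes were then higher in fem-1(lf).

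Counts moved with where 0 was set. With neuron marker centring 1 flp, 8 nlp and 1 ins gene were higher in fem-1(lf) and 4, 8 and 3 in fem-3(gf), with family medians of -0.23, -0.0436 and -0.11. With array median centring 2 nlp genes were higher in fem-1(lf) and 5 ins genes in fem-3(gf), with an ins median of -0.32. The shares of all features were 23.8% and 18.3% on these sides. With equal spread as well, 2 nlp genes and 1 ins gene were higher in fem-1(lf), with an ins median of -0.32. With rows alone 2 nlp genes were higher in fem-1(lf), nlp-55 and nlp-7, where a member counted if any of its rows passed and a single gene is given by its row of lowest p. At an adjusted p under 0.01, 5 flp, 10 nlp and 4 ins genes remained past the test in fem-3(gf). At a 2-fold minimum 0, 2 and 3 remained, with 0 nlp genes in fem-1(lf), against 10.2% and 8.44% of all features on these sides. Shares of all features are not given here for an adjusted p under 0.01, for equal spread or for rows alone. Those member counts thus cannot be set against a rate over the whole array.

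Genes near 0 that did not pass changed sign. With array median centring, neuron marker centring and equal spread in turn, flp-1 was at 0.0247, 0.24 and 0.0236, nlp-60 at 0.0772, 0.29 and 0.0721, and nlp-36 at 0.0630, 0.27 and 0.06. With neuron marker centring ins-32 was at 0.18, ins-26 at 0.12, nlp-45 at 0.0694 and unc-31 at 0.0023. Leaving out a prep put ins-26 between -0.372 (without prep 3) and 0.0392 (without prep 1), nlp-60 between -0.0644 (without prep 3) and 0.0641 (without prep 2), and flp-1 between -0.118 (without prep 1) and 0.0224 (without prep 3). The cause was not tested, other than that centring shifts all genes alike.

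No paired analysis was possible because the 3 arrays form 1 group and each ratio already pairs the preps on an array. Signal over background was not analysed here, so dim and bright spots could not be weighed differently.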

Other observations

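The middle of the flp and ins families was narrow, and that of the nlp genes was wider. The quartiles of the member means were -0.66 and -0.40 for flp, -0.60 and -0.06 for nlp and -0.49 and -0.23 for ins, against -0.41 and 0.34 for all features. The row shared by mrt-1 and flp-22 was above 0 on all 3 arrays, and the 2 values of nlp-91 lay on opposite sides of 0.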
